A study of Mus musculus with 11 samples.

Results

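Solute carriers are the membrane proteins, named Slc in the mouse, that move amino acids, sugars, ions, metals, vitamins, nucleosides and metabolites across the cell surface and the membranes of organelles. Members were chosen by symbol, as every row of the expression table that starts with Slc followed by a digit, and then by level: 2 or more libraries had to reach 1 RPKM. RPKM is a read number scaled by gene length and library size. The table held 180 such rows among 10992 genes, and 174 of them passed the level rule, as did 10429 genes in all. The 6 that did not pass were Slc18a1, Slc7a11, Slc12a5, Slc22a17, Slc38a6 and Slc39a8. Just outside the level rule were Slc18a1, at 2.78 RPKM in 1 library and 0.578 or less in the others, and Slc22a17, at 1.75 and 0.853 in its highest libraries. Just inside it were Slc2a9, at 1.1 and 1.02 RPKM, and Slc10a1, at 1.45 and 1.02 RPKM. A symbol is not a function: 4 of the 174 name no carrier. These are Slc9a3r1 (the scaffold protein NHERF1), Slc4a1ap, Slc7a6os and Slc2a4rg-ps, and they were kept as a class of their own.

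The RNA came from regulatory T cells (Tregs), a Foxp3-expressing kind of CD4 T cell that holds immune responses in check, sorted by flow cytometry, on live cells positive for CD3, CD4 and Foxp3, from visceral adipose tissue (VAT) or spleen of male mice aged 25 weeks. Every mouse carried a YFP-Cre recombinase driven by Foxp3, which acts in the Foxp3-expressing lineage. The mice called KO had both copies of Srebf2 flanked by loxP sites (flox/flox), and those called WT had wt/wt Srebf2. Srebf2 encodes SREBP2, the transcription factor of cholesterol synthesis and uptake. Libraries were 3 VAT KO, 3 VAT WT, 2 spleen KO (replicates 2 and 3) and 2 spleen WT (replicates 2 and 3). Spleen KO replicate 1 was not analysed here. Whether the libraries of one group stem from different animals was not stated, so the p-values below speak of variation among these libraries, part of which may be technical.

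Carriers set which nutrients a T cell can use. Activated T cells take up glucose through GLUT proteins of the SLC2 family and glutamine and leucine through Slc1a5 and the Slc3a2-Slc7a5 pair, and export lactate through SLC16 proteins. Carriers of the SLC25 family sit mostly in the inner mitochondrial membrane and pass phosphate, nucleotides, carnitine esters and organic acids, while SLC35 proteins feed sugar nucleotides to the Golgi. VAT Tregs are known for a tissue programme of their own and for lipid handling.

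Promoter windows from 250 bases before to 50 bases after the start (RefSeq, GRCm38.p6) were matched for 130 of the 174 members and searched on both strands for 3 sequences. The sterol element TCACNCCAC lay in 2 members, Slc2a8 and Slc23a2, which is 1.54% of members against 1.39% of the table's genes and 1.44% of all genes of the reference. The E-box CACGTG lay in 24 members, 18.5% against 12.1% and 8.09%. The composite element TGATGNAA lay in 4 members, 3.08% against 2.68% and 4.51%. In the windows printed here no matches overlap, and a match is a description of the window, not a site. The windows shown are those of Slc25a33, the member with the smallest p between VAT KO and VAT WT (chr4:149774218-149774517, minus strand), of the neighbours Slc28a2 (chr2:122426185-122426484, plus strand) and Slc28a2b (chr2:122484691-122484990, plus strand), both lower in VAT, and of Slc2a8 (chr2:32982034-32982333, minus strand), which was higher in VAT. Capitals mark the E-box in Slc25a33 and the sterol element in Slc2a8. None of the 3 sequences is in the windows of Slc28a2 and Slc28a2b.
Slc25a33: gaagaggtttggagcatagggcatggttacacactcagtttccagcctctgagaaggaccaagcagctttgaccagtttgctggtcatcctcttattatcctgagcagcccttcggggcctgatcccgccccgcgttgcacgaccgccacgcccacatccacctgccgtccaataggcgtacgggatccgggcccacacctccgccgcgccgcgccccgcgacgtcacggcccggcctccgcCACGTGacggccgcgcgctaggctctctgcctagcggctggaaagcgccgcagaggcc
Slc28a2: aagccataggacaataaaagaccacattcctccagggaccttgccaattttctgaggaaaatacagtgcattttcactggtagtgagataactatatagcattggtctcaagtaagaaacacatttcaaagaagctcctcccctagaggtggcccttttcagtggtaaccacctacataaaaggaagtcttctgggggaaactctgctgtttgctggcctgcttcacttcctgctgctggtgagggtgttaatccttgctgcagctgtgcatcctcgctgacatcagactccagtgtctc
Slc28a2b: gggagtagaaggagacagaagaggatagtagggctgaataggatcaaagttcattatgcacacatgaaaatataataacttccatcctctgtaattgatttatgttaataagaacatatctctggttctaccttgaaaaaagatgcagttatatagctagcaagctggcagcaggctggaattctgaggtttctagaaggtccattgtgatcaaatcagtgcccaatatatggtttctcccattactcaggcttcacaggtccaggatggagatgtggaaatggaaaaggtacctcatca
Slc2a8: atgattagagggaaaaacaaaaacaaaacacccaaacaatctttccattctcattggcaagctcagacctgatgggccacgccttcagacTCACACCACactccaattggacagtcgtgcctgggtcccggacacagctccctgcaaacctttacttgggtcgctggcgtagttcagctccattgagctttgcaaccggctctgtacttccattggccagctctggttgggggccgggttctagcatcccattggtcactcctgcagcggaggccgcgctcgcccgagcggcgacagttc

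The targeted gene followed the labels. Srebf2 had 0.263, 0.6 and 1.23 RPKM in VAT KO against 16.6, 15.6 and 30.5 RPKM in VAT WT, and 2.59 and 1.59 RPKM in spleen KO against 10.5 and 23.2 RPKM in spleen WT. All 7 Treg markers were measured, and their sums were 921 to 969 RPKM in VAT KO and 956 to 965 in VAT WT. In spleen the sums were 784 to 797 RPKM in KO and 785 to 919 in WT. Members of the sum went opposite ways. Mean Ctla4 was 315 (VAT KO), 342 (VAT WT), 104 (spleen KO) and 100 RPKM (spleen WT). Foxp3 means were 15.2, 15.3, 8.34 and 7.83 RPKM in that order, and mean Il2ra and Ikzf2 were also higher in VAT. Mean Cd3d was lower in VAT, at 148, 140, 239 and 298 RPKM, as was Cd3e, and Cd4 means were close. The spleen WT libraries stood apart from each other: their median SD over all genes was 0.279 log2 units, against 0.187 in VAT KO, 0.189 in VAT WT and 0.148 in spleen KO. Markers of other cells differed as well. Of 12 myeloid markers 4 were measured (Csf1r, Ctss, Adgre1 and Fcer1g), summing to 20.2 to 45.6 RPKM in VAT KO, 12.3 to 15.2 in VAT WT, 183 to 186 in spleen KO and 179 to 240 in spleen WT. Most of each sum was Ctss, with means of 35.3 RPKM in VAT KO, 12.9 in VAT WT, 182 in spleen KO and 206 in spleen WT. Mean Csf1r and Adgre1 were low and lower in VAT, but mean Fcer1g was 1.46 RPKM in VAT KO against 1.06 in spleen KO. Of 6 CD8 T and NK markers 3 were measured, at 104 to 129 RPKM in VAT KO, 74.7 to 191 in VAT WT, 35 to 35.3 in spleen KO and 36.3 to 61.4 in spleen WT. These were Cd8a, Cd8b1 and Nkg7, and the higher sums of VAT came from Nkg7. Its mean RPKM was 110 (VAT KO), 104 (VAT WT), 18.2 (spleen KO) and 33.3 (spleen WT). Mean Cd8b1 was lower in VAT, at 9.16 against 16.3 RPKM for KO and 10.9 against 14.4 for WT. Mean Cd8a was also lower in VAT, at 0.572 against 0.681 RPKM for KO and 0.866 against 1.18 for WT. Libraries of VAT and spleen overlapped for Cd8a in both genotypes and for Cd8b1 in WT. Of 9 B cell markers 6 were measured, at 53.5 to 105 RPKM in VAT KO, 53.3 to 199 in VAT WT, 96.2 to 129 in spleen KO and 101 to 127 in spleen WT. VAT WT replicate 2 held the highest sum of both the B cell list and the CD8 and NK list. The latter came from Nkg7, at 179 RPKM in that library. Cd8a and Cd8b1 were higher in VAT WT replicate 3 (1.335 and 17 RPKM) than in replicate 2 (1.23 and 10.9 RPKM). Of 5 neutrophil markers 1 was measured, Mmp9, at 112 to 135 RPKM in VAT KO, 129 to 217 in VAT WT, 1.95 to 3.84 in spleen KO and 0.387 to 4.93 in spleen WT, and of 6 stromal and endothelial markers 1, Pecam1, at 8.8 to 11.8 RPKM in VAT KO, 4.39 to 7.37 in VAT WT, 19.3 to 34.9 in spleen KO and 15.9 to 31.4 in spleen WT. Only Lipe of 5 adipocyte markers was measured, at 1.63 to 3.4 RPKM over all libraries, and none of 5 red cell markers was. The part of other cells in the results below was not tested.

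Solute carriers made up 0.88% to 1.03% of each library's summed RPKM, and 155 to 162 of them reached 1 RPKM in a library. Their median mean level was 5.74 RPKM, against 7.71 RPKM over all genes that passed. Of the 174, 99 had a mean of at least 5 RPKM, 16 of at least 20 and 4 of at least 50. The highest mean, 166 RPKM, belonged to the scaffold symbol Slc9a3r1. Among true carriers the mitochondrial ADP/ATP exchanger Slc25a5 led at 124 RPKM, but 46.6% of its transcript's 50-base words also occur in other genes, so its value is uncertain. The glutamine carrier Slc1a5 followed at 74.1 RPKM, the mitochondrial phosphate carrier Slc25a3 at 57.9, the choline transporter-like Slc44a2 at 48.6, the sugar carrier Slc50a1 at 42.6, the oxoglutarate carrier Slc25a11 at 40.1, a further ADP/ATP exchanger, Slc25a4, at 39.5, the CD98 heavy chain Slc3a2 at 31.2 and the glucose transporter Slc2a3 (GLUT3) at 30.2. Summed by class, the 37 mitochondrial carriers had 490 to 521 RPKM in VAT KO, 480 to 514 in VAT WT, 439 to 448 in spleen KO and 468 to 581 in spleen WT. That made them the largest class by level in every library, and their groups overlapped except that both spleen KO libraries lay below all others.

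**Figure D1:**
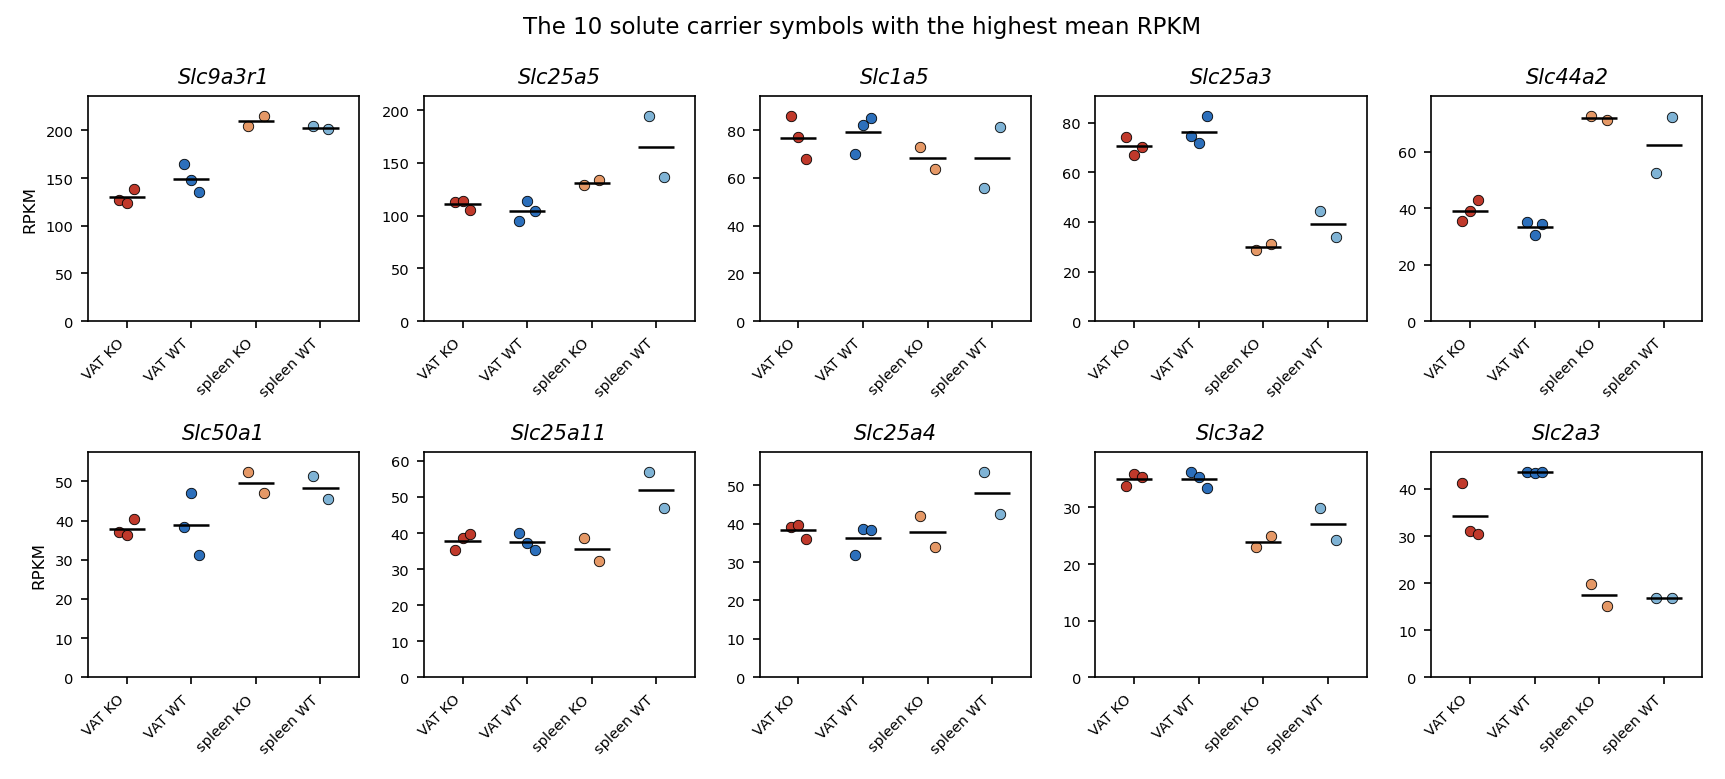
RPKM (y axis, linear, from 0) of the 10 solute carrier symbols with the highest mean, in the 4 groups on the x axis; each point is a library and each bar the group's mean. Slc25a3 and Slc2a3 sat higher in VAT and Slc44a2 and Slc9a3r1 lower in VAT than in spleen in both genotypes, while Slc1a5 overlapped between all groups.

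VAT Tregs and spleen Tregs differed in a set of carriers that was shared by both genotypes. In KO mice 18 members were higher and 11 lower in VAT than in spleen (limma on log2(RPKM + 1), Benjamini-Hochberg adjusted p under 0.05 over 10429 genes), 29 of 174 or 16.7%. Over all genes that comparison called 14.6%, 7.65% higher and 6.94% lower. In WT mice 27 members were higher and 24 lower, 51 of 174 or 29.3%, against 26.1% of all genes, 10.7% higher and 15.4% lower. An unadjusted p was under 0.05 for 56 members in KO (32.2% against 28.2% of all genes) and for 71 in WT (40.8% against 39.5%). Groups did not overlap for 94 members in KO (54% against 50.4%) and for 88 in WT (50.6% against 49.1%). Members were thus called at about the rate of genes in general. The median log2 change of members was 0.02 in KO and 0 in WT, against -0.09 and -0.12 over all genes. Scaling by median ratios raised the median of all genes in WT to 0.01 and turned the WT split to 31 higher and 16 lower.

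The genotype comparisons of tissue share no library, but both came from 1 fit with a common estimate of each gene's spread, so they are not independent. In both, 23 members were called, all in the same direction: 13 higher and 10 lower in VAT. These are 79.3% of the KO list and 45.1% of the WT list. Over all genes the shares were 80.9% of the KO list and 45.2% of the WT list. Those higher in VAT included Slc52a3, Slc16a6, Slc37a3, Slc2a3, Slc2a8, Slc25a24, Slc25a3, Slc15a3, Slc38a2, Slc41a2, Slc35e4 and Slc17a5. Lower in VAT were Slc28a2b, Slc28a2, Slc7a10, Slc44a2, Slc22a2, Slc22a5, Slc25a35, Slc45a4, Slc9a3r1 and Slc2a4rg-ps. Of the 23, 7 were called in both genotypes under every alternative that tested them, each library left out in turn included: Slc52a3, Slc16a6, Slc25a24, Slc25a3, Slc28a2b, Slc7a10 and Slc44a2. With spleen KO replicate 2 left out 12 of the 23 were called in KO, and 14 with replicate 3 left out. With spleen WT replicate 2 left out 21 were called in WT, and likewise 21 with replicate 3 left out. Of the called members, 5 in KO and 7 in WT reached 1 RPKM in libraries of 1 tissue only. They passed the level rule through the tissue where they were high, which also favours a call between the tissues, and Slc7a10, Slc15a3, Slc22a2, Slc40a1 and Slc41a2 are among them. In bulk libraries fewer cells of a type and less RNA per cell cannot be told apart.

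**Figure D2:**
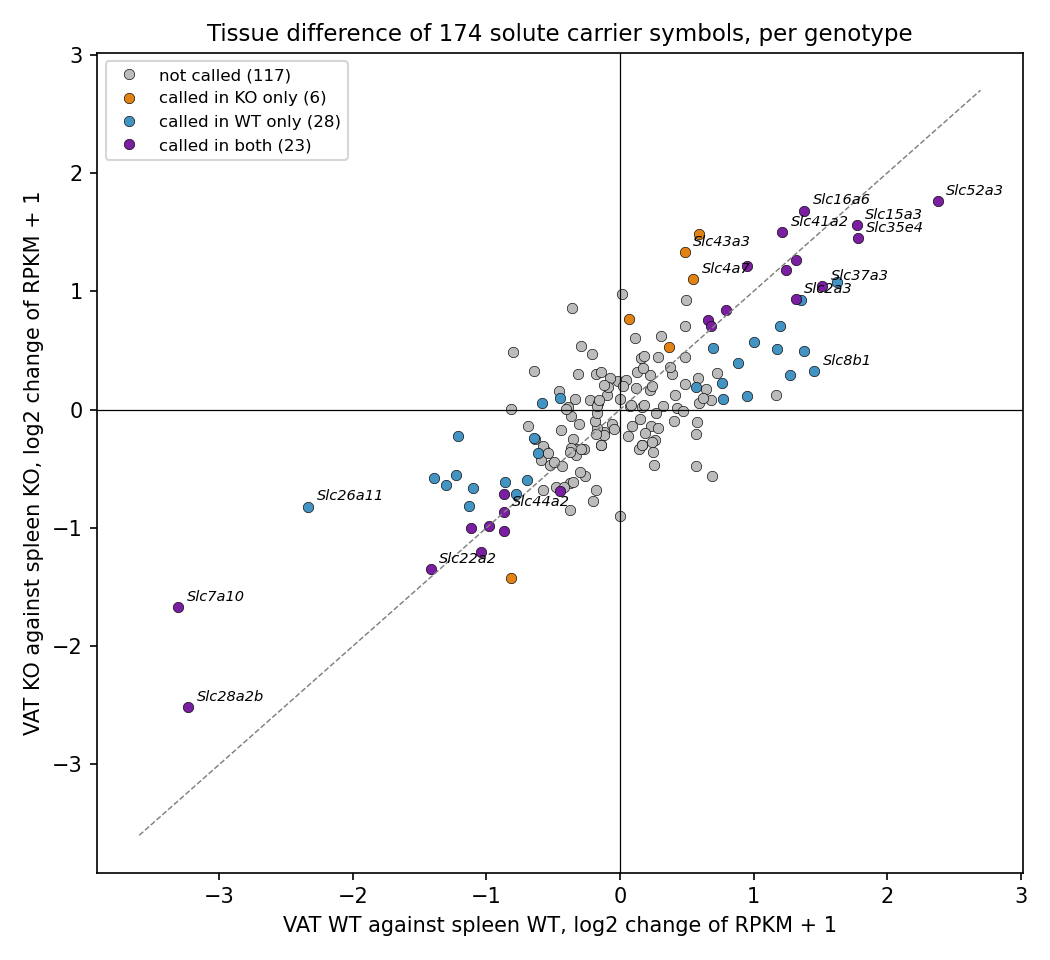
Log2 change of RPKM + 1 between VAT and spleen for 174 solute carrier symbols, in WT mice (x axis) and KO mice (y axis); colours give the genotypes in which a symbol was called and the dashed line marks equal change. All 23 symbols called in both genotypes have the same sign on both axes, with Slc52a3 at the upper end and Slc28a2b and Slc7a10 at the lower end.

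Vitamin and cofactor carriers held the member with the highest log2 change. Slc52a3, a riboflavin (vitamin B2) transporter, had 12.1, 6.72 and 11.4 RPKM in VAT KO, 14.7, 15.1 and 17.4 RPKM in VAT WT, 1.84 and 2.55 RPKM in spleen KO, and 1.63 and 2.91 RPKM in spleen WT. Every VAT library was above every spleen library. Its log2 difference from spleen was 1.76 ± 0.26 (adjusted p = 0.000603) in KO and 2.38 ± 0.26 (adjusted p = 3.43e-05) in WT. None of the 50-base words of its transcripts occur in another gene. Of 8 members of the class, 1 rose in KO, and 2 rose and 2 fell in WT. Over all genes 7.65% were higher and 6.94% lower in VAT in KO, and 10.7% higher and 15.4% lower in WT, and the counts of no class, here or below, were tested against these shares. Slc19a2, a thiamine transporter, had a log2 change of 0.51 ± 0.24 (adjusted p = 0.191) in KO and rose by 1.18 ± 0.24 (adjusted p = 0.00364) in WT. The falls in WT were Slc46a3, a lysosomal carrier, at -0.7 ± 0.23 (adjusted p = 0.041) and Slc49a4 at -0.58 ± 0.18 (adjusted p = 0.0318). Slc46a3 lost the call in 10 of 18 alternatives and Slc49a4 in 8 of 18. For both these included quantile normalization (0.0624 and 0.0633), median-ratio scaling (0.0953 and 0.103) and each VAT WT library left out. Without spleen WT replicate 2 the log2 changes were -0.5 and -0.48. The related riboflavin transporter Slc52a2 was not called in either genotype.

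Of 17 sugar and monocarboxylate carriers 5 rose and 2 fell in KO, and 6 rose and 3 fell in WT. Slc2a3, the glucose transporter GLUT3, had 41.3, 31.2 and 30.4 RPKM in VAT KO, 43.6, 43.4 and 43.5 RPKM in VAT WT, 19.8 and 15.1 RPKM in spleen KO, and 16.9 and 16.9 RPKM in spleen WT. All VAT libraries were above all spleen libraries, and the VAT WT libraries lay close together. The log2 change was 0.93 ± 0.17 (adjusted p = 0.00289) in KO and 1.32 ± 0.17 (adjusted p = 0.000132) in WT. Slc2a1 (GLUT1) was not called in either genotype, at 17.1 to 20 RPKM in VAT KO, 18.3 to 22.5 in VAT WT, 10.8 to 20.5 in spleen KO and 9.45 to 18.3 in spleen WT. Slc2a8 (GLUT8), a transporter found mostly on membranes inside the cell and the carrier of the sterol element printed above, had 8.72, 7.07 and 7.23 RPKM in VAT KO, 8.51, 7.72 and 7.11 RPKM in VAT WT, 2.36 and 3.33 RPKM in spleen KO, and 1.86 and 3.81 RPKM in spleen WT. It was about as high in VAT KO as in VAT WT, and rose against spleen by 1.18 ± 0.24 (adjusted p = 0.00597) in KO and by 1.24 ± 0.24 (adjusted p = 0.00273) in WT.

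Slc37a3, of the sugar-phosphate exchanger family, had 10.2, 8.18 and 8.8 RPKM in VAT KO, 12.9, 13.1 and 11.9 RPKM in VAT WT, 4.53 and 3.26 RPKM in spleen KO, and 3.67 and 3.86 RPKM in spleen WT. The VAT groups did not overlap with spleen, nor with each other. Against spleen its log2 change was 1.05 ± 0.19 (adjusted p = 0.00275) in KO and 1.52 ± 0.19 (adjusted p = 0.000101) in WT. Its relatives went different ways. In WT Slc37a2 and Slc37a4, the glucose-6-phosphate transporter, rose by 1.62 and 0.95 on the log2 scale, and Slc37a1 fell by 0.78. Without spleen WT replicate 2 the WT log2 changes of Slc37a2, Slc37a4 and Slc37a1 were 1.07, 0.43 and -0.75, and that of Slc37a4 was 1.47 without replicate 3. In WT Slc37a1 and Slc37a4 lost the call without VAT WT replicate 1 (adjusted p 0.0518 and 0.103) or 2 (0.0841 and 0.093). None of these 3 was called in KO. There Slc37a2 had 1.08 ± 0.38 (adjusted p = 0.0814), Slc37a4 0.11 ± 0.31 (adjusted p = 0.862) and Slc37a1 -0.71 ± 0.23 (adjusted p = 0.0587). The KO change of Slc37a1 passed with the compared groups alone (0.0433) and with a pseudocount of 5 (0.0497). Of the monocarboxylate transporters, Slc16a6 (MCT7, an exporter of ketone bodies in zebrafish liver) had 12.7, 8.41 and 6.33 RPKM in VAT KO, 8.72, 12.2 and 9.68 RPKM in VAT WT, 2.31 and 1.82 RPKM in spleen KO, and 3.64 and 2.92 RPKM in spleen WT. It rose by 1.68 ± 0.26 (adjusted p = 0.000842) in KO and by 1.38 ± 0.26 (adjusted p = 0.00217) in WT. Of its 50-base words 20.9% lie opposite Amz2, and the libraries do not mark strand. Of the lactate carriers, Slc16a1 (MCT1) overlapped between the groups, and Slc16a3 (MCT4) was called in the KO comparison alone, at 0.76 ± 0.21 (adjusted p = 0.0312). Slc45a4, of another sugar transporter family, fell, with log2 changes of -0.99 ± 0.23 (adjusted p = 0.0125) in KO and -0.98 ± 0.23 (adjusted p = 0.00859) in WT. Without spleen KO replicate 3 the adjusted p in KO was 0.0579 for Slc2a3, 0.0507 for Slc37a3 and 0.2 for Slc16a3, and without spleen KO replicate 2 it was 0.083 for Slc2a8, 0.128 for Slc45a4 and 0.099 for Slc16a3. Slc16a3 was also not called without VAT KO replicate 2 (0.0901) or 3 (0.0838).

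**Figure D3:**
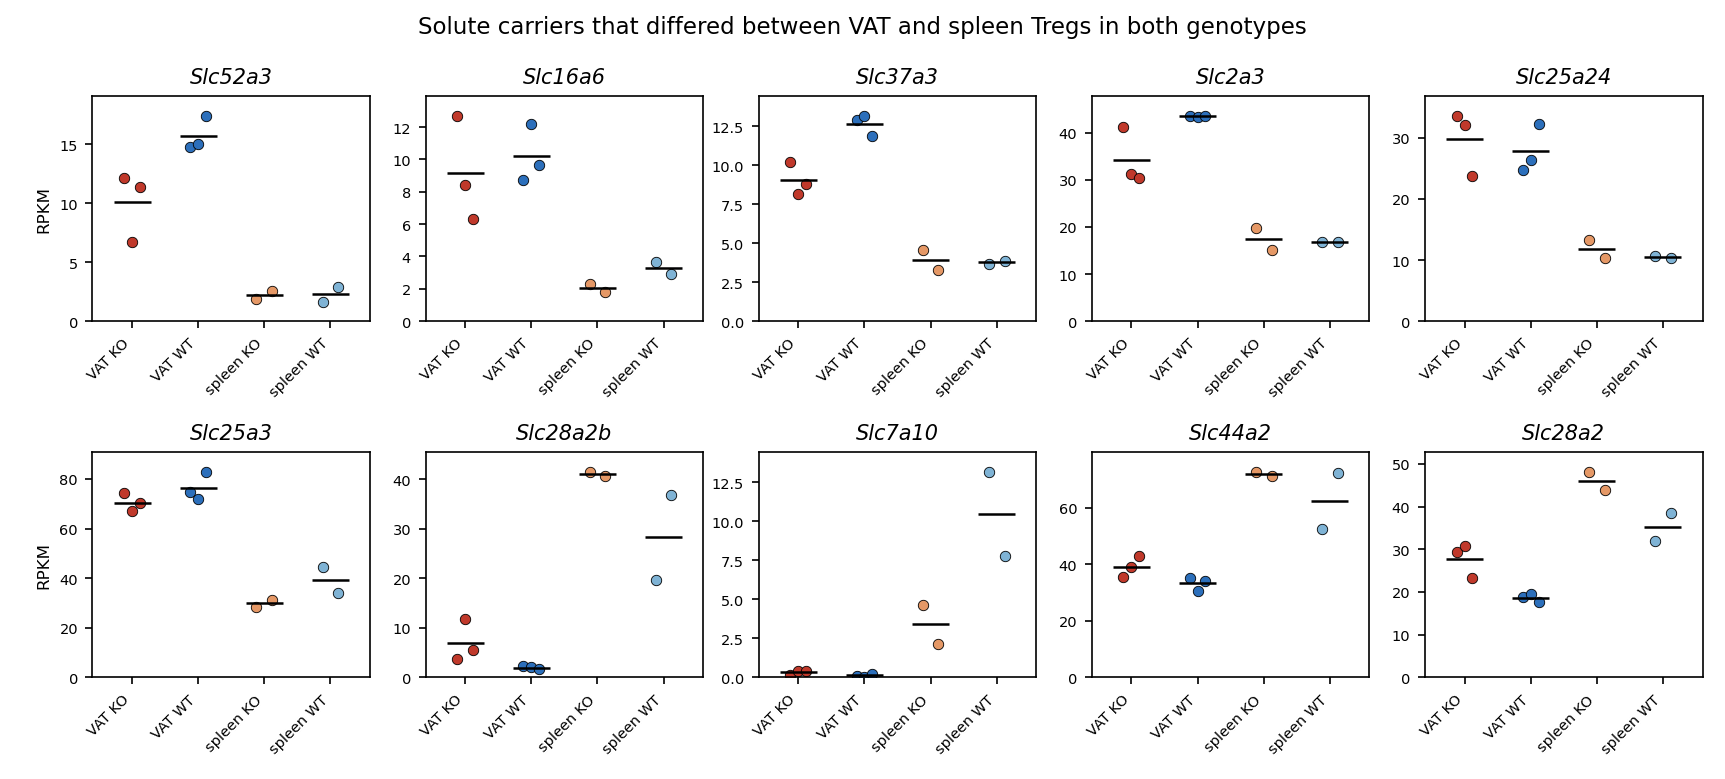
RPKM (y axis, linear, from 0) per library of 10 solute carriers called between VAT and spleen in both genotypes; points are libraries and bars group means, with 3 libraries per VAT group and 2 per spleen group. In the upper row and Slc25a3 every VAT library is above every spleen library, and in the other 4 panels every VAT library is below. All 10 were named by a rule that required groups not to overlap in KO, WT or both, so this separation is in part set by the choice.

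Of 20 amino acid and peptide carriers 4 rose and 1 fell in KO, and 5 rose and 2 fell in WT. Slc38a2 (SNAT2), an importer of small neutral amino acids that cells raise when amino acids are short, had 33.1, 32.5 and 35.9 RPKM in VAT KO, 31, 27.3 and 33.6 RPKM in VAT WT, 18.7 and 22 RPKM in spleen KO, and 18.5 and 18.9 RPKM in spleen WT. VAT and spleen did not overlap. On the log2 scale it rose by 0.71 ± 0.15 (adjusted p = 0.007) in KO and by 0.68 ± 0.15 (adjusted p = 0.00595) in WT. Slc15a3, a lysosomal carrier of histidine and small peptides, had 2.13, 2.9 and 2.25 RPKM in VAT KO, 4.13, 1.58 and 4.07 RPKM in VAT WT, 0.05 and 0.276 RPKM in spleen KO, and 0.022 and 0.38 RPKM in spleen WT. It was at 0.38 RPKM or less in every spleen library and rose by 1.56 ± 0.31 (adjusted p = 0.00495) in KO and 1.77 ± 0.31 (adjusted p = 0.00131) in WT. Without spleen KO replicate 2 the adjusted p in KO was 0.0957 for Slc38a2 and 0.0592 for Slc15a3.

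Slc7a10 was the amino acid carrier that fell in both genotypes. It encodes Asc-1, an exchanger of small neutral amino acids and D-serine that is also known as a surface protein of white fat cells in mice. It had 0.168, 0.424 and 0.378 RPKM in VAT KO, 0.117, 0.032 and 0.231 RPKM in VAT WT, 4.66 and 2.12 RPKM in spleen KO, and 13.1 and 7.77 RPKM in spleen WT. All VAT libraries were at 0.424 RPKM or less and all spleen libraries at 2.12 RPKM or more. Its log2 change was -1.67 ± 0.3 (adjusted p = 0.00216) in KO and -3.31 ± 0.3 (adjusted p = 5.07e-06) in WT. Of its 50-base words 13.5% lie opposite Lrp3. Of the glutamine and leucine carriers, Slc1a5 overlapped between all groups. Slc3a2, the heavy chain of that route, had 33.8, 35.8 and 35.4 RPKM in VAT KO, 36.2, 35.4 and 33.5 RPKM in VAT WT, 22.9 and 24.9 RPKM in spleen KO, and 29.8 and 24.2 RPKM in spleen WT, and it rose by 0.53 ± 0.14 (adjusted p = 0.0259) in KO, with 0.37 ± 0.14 (adjusted p = 0.077) in WT. That call was lost without any 1 of the VAT KO or spleen KO libraries (adjusted p up to 0.178), while in WT Slc3a2 passed the threshold without spleen WT replicate 2 (0.0304) and with quantile normalization (0.0181). Its light chain Slc7a5 was not called. In WT the lysosomal Slc36a1, its relative Slc36a4 and Slc38a10 rose by 1, 1.28 and 0.76 on the log2 scale. Without spleen WT replicate 2 the adjusted p was 0.213 for Slc36a4, with a log2 change of 0.57 (1.98 without replicate 3, and adjusted p of 0.0557 and 0.061 without VAT WT replicate 1 or 3), and 0.0734 for Slc38a10, and without replicate 3 it was 0.057 for Slc36a1. Slc43a3, of an amino acid family but known in human cells as a carrier of purine bases, had 5.43, 5.16 and 4.42 RPKM in VAT KO, 6.46, 5.34 and 5.29 RPKM in VAT WT, 0.809 and 2.14 RPKM in spleen KO, and 5.51 and 2.5 RPKM in spleen WT, and it rose in KO by 1.33 ± 0.3 (adjusted p = 0.00911) (0.136 without spleen KO replicate 2).

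Nucleoside carriers were the class with the lowest summed level in VAT relative to spleen. The sum over 6 members was 41.2 to 55.9 RPKM in VAT KO, 34.9 to 38.4 in VAT WT, 99.1 to 105 in spleen KO and 63.8 to 95.5 in spleen WT. The class includes Slc28a2, the concentrative transporter CNT2 for purine nucleosides and uridine, and its neighbour Slc28a2b on chromosome 2. Slc28a2 had 29.3, 30.9 and 23.2 RPKM in VAT KO, 18.9, 19.6 and 17.6 RPKM in VAT WT, 48.1 and 43.9 RPKM in spleen KO, and 31.9 and 38.4 RPKM in spleen WT. Slc28a2b had 3.74, 11.8 and 5.52 RPKM in VAT KO, 2.29, 2.04 and 1.61 RPKM in VAT WT, 41.4 and 40.7 RPKM in spleen KO, and 19.6 and 36.8 RPKM in spleen WT. For both genes every VAT library was below every spleen library, and every VAT KO library above every VAT WT library. Against spleen, Slc28a2b had a log2 change of -2.52 ± 0.36 (adjusted p = 0.000399) in KO and -3.23 ± 0.36 (adjusted p = 3.33e-05) in WT. The log2 change of Slc28a2 was -0.71 ± 0.16 (adjusted p = 0.0105) in KO and -0.87 ± 0.16 (adjusted p = 0.002) in WT, and its KO call was lost without spleen KO replicate 2 (adjusted p 0.106) or 3 (0.0562). These genes share 1498 of their 50-base words, 40.6% of those of Slc28a2b and 38% of those of Slc28a2, so how the counting divided their reads bears on both. The promoter windows printed above have a GC content of 46.7% for Slc28a2 and 40% for Slc28a2b. Of the equilibrative carriers Slc29a4 was called in KO only, at 1.49 ± 0.46 (adjusted p = 0.0463), and not without spleen KO replicate 2 (0.312) or 3 (0.0766), VAT KO replicate 1 (0.165) or 3 (0.102) or VAT WT replicate 2 (0.0596).

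Among 37 mitochondrial carriers 3 rose and 1 fell in KO, and 5 rose and 4 fell in WT. Slc25a3, which brings phosphate into the matrix for ATP synthesis, had 74.2, 66.9 and 70.1 RPKM in VAT KO, 74.7, 71.9 and 82.7 RPKM in VAT WT, 28.6 and 31.1 RPKM in spleen KO, and 44.6 and 34 RPKM in spleen WT. VAT and spleen were apart by more than the range of either. The log2 change of this carrier was 1.21 ± 0.15 (adjusted p = 0.000127) in KO, the smallest p of any member there, and 0.95 ± 0.15 (adjusted p = 0.000555) in WT. Slc25a24, a calcium-regulated exchanger of ATP-magnesium for phosphate, had 33.6, 32 and 23.7 RPKM in VAT KO, 24.7, 26.4 and 32.3 RPKM in VAT WT, 13.3 and 10.3 RPKM in spleen KO, and 10.6 and 10.3 RPKM in spleen WT. It rose by 1.26 ± 0.19 (adjusted p = 0.000755) in KO and by 1.32 ± 0.19 (adjusted p = 0.000351) in WT.

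Slc25a35, whose substrate is not known with certainty, fell, with log2 changes of -1.21 ± 0.24 (adjusted p = 0.00414) in KO (0.0556 without spleen KO replicate 2) and -1.04 ± 0.24 (adjusted p = 0.00669) in WT, and 25.3% of its 50-base words lie opposite Rangrf. The other mitochondrial carriers that follow were called in WT only. Slc25a20, the carnitine-acylcarnitine carrier that admits fatty acids for oxidation, had 32.3, 23.6 and 24.9 RPKM in VAT KO, 27.5, 30.7 and 33.4 RPKM in VAT WT, 17.4 and 23.1 RPKM in spleen KO, and 12.9 and 20.01 RPKM in spleen WT. Against spleen the log2 change was 0.4 ± 0.21 (adjusted p = 0.249) in KO and 0.88 ± 0.21 (adjusted p = 0.00928) in WT, and without spleen WT replicate 2 the adjusted p in WT was 0.0881 and the log2 change 0.58. Slc25a16 rose in WT by 1.35 ± 0.31 (adjusted p = 0.00714), with 0.73 without spleen WT replicate 2 and 1.98 without replicate 3. Its log2 change in KO was 0.93 ± 0.31 (adjusted p = 0.0655). That KO change passed with quantile normalization (0.0498), median-ratio scaling (0.0482) and the compared groups alone (0.0123). The ADP/ATP exchanger Slc25a5 had 106 to 114 RPKM in VAT KO, 94.5 to 114 in VAT WT, 129 to 133 in spleen KO and 137 to 194 in spleen WT. Its log2 change was -0.24 ± 0.16 (adjusted p = 0.344) in KO and -0.64 ± 0.16 (adjusted p = 0.00975) in WT (-0.39 with adjusted p 0.0655 without spleen WT replicate 2). Slc25a4, the other ADP/ATP exchanger named above, was not called.

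Of 8 organic ion and vesicular carriers 1 rose and 2 fell in KO, and 1 rose and 3 fell in WT. Slc22a5 (OCTN2), the plasma membrane carnitine transporter, had 4.33, 6.54 and 7.97 RPKM in VAT KO, 4.89, 3.91 and 6.1 RPKM in VAT WT, 14.3 and 12.7 RPKM in spleen KO, and 8.79 and 10.8 RPKM in spleen WT. All VAT libraries were below all spleen libraries. The log2 change of Slc22a5 was -1.02 ± 0.25 (adjusted p = 0.0139) in KO and -0.87 ± 0.25 (adjusted p = 0.0216) in WT, and the highest adjusted p without 1 library was 0.119 in KO (spleen KO replicate 2) and 0.0746 in WT (spleen WT replicate 3). The call was also lost without VAT KO replicate 1 or spleen KO replicate 3 in KO (0.054 and 0.0698), and without VAT WT replicate 1 or 2 in WT (0.0521 and 0.0678). It shares 26.9% of its 50-base words with its neighbour Slc22a21. Slc22a2 (OCT2), a cation transporter, was at 0.411 RPKM or less in VAT and passed the level rule through 3 spleen libraries alone. It fell, with log2 changes of -1.35 ± 0.36 (adjusted p = 0.0237) in KO and -1.42 ± 0.36 (adjusted p = 0.0122) in WT, and with adjusted p of 0.191 in KO without spleen KO replicate 3 and 0.155 in WT without spleen WT replicate 2. With spleen WT replicate 2 left out the WT log2 change of Slc22a2 was -0.71, and with replicate 3 left out -2.13. In KO the calls of Slc22a2 were also lost without spleen KO replicate 2 (0.0703), VAT KO replicate 1 (0.0802) or VAT KO replicate 3 (0.0581). Slc17a5 (sialin), the lysosomal exporter of sialic acid, rose by 0.85 ± 0.21 (adjusted p = 0.0172) in KO (0.165 without spleen KO replicate 2, and 0.0504 and 0.0618 without VAT KO replicate 1 or 3) and by 0.79 ± 0.21 (adjusted p = 0.0161) in WT (0.0567 without VAT WT replicate 3 and 0.0551 without spleen WT replicate 2). Slc17a9, the vesicular ATP carrier, fell in WT, with a log2 change of -1.13 ± 0.29 (adjusted p = 0.0125), or -0.74 without spleen WT replicate 3. In KO its change was -0.81 ± 0.29 (adjusted p = 0.0812), which passed with the compared groups alone (0.0344).

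Of 7 lipid, choline and bile acid carriers 1 fell in each genotype, and it was the same one. Slc44a2, a choline transporter-like protein of the plasma membrane and mitochondria, had 35.6, 39 and 42.9 RPKM in VAT KO, 35.2, 30.6 and 34.3 RPKM in VAT WT, 72.6 and 71.3 RPKM in spleen KO, and 52.5 and 72.3 RPKM in spleen WT. VAT libraries were all below spleen libraries. The log2 change was -0.87 ± 0.16 (adjusted p = 0.00311) in KO and -0.87 ± 0.16 (adjusted p = 0.00184) in WT. The fatty acid transport proteins Slc27a1 and Slc27a4 were low and were not called. At 1.53 to 2.81 RPKM in VAT KO, 2.39 to 3.1 in VAT WT, 1.7 to 3.37 in spleen KO and 2.86 to 3.51 in spleen WT, Slc27a1 overlapped between the KO groups and between the WT groups.

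Of 22 metal carriers 1 rose and none fell in KO, and 2 rose and 1 fell in WT. Slc41a2, a magnesium transporter, had 2.6, 1.97 and 2.21 RPKM in VAT KO, 1.25, 2.93 and 3.58 RPKM in VAT WT, 0.181 and 0.119 RPKM in spleen KO, and 0.81 and 0.209 RPKM in spleen WT. It stayed under 1 RPKM in spleen and rose by 1.5 ± 0.31 (adjusted p = 0.00577) in KO and by 1.21 ± 0.31 (adjusted p = 0.0125) in WT, with 0.0555 in KO without spleen KO replicate 3, and 0.0675 and 0.0521 in WT without spleen WT replicate 3 or VAT WT replicate 3. In WT Slc41a3 rose by 1.38 ± 0.3 (adjusted p = 0.00552) (0.0578 without spleen WT replicate 2). The iron exporter Slc40a1 (ferroportin), a gene of iron-recycling macrophages, had 0, 0.011 and 0.01 RPKM in VAT KO, 0.047, 0 and 0 RPKM in VAT WT, 0.472 and 0.658 RPKM in spleen KO, and 2.06 and 1.05 RPKM in spleen WT. It was at or near 0 in VAT and reached 1 RPKM in the spleen WT libraries alone, through which it passed the level rule. That rule favours lower values in VAT than in spleen WT, but the WT call was also made in the fit without the filter. Between VAT and spleen Slc40a1 had a log2 change of -0.63 ± 0.24 (adjusted p = 0.104) in KO, which passed without the filter (0.0494). In WT the change was -1.3 ± 0.24 (adjusted p = 0.00187). The summed myeloid markers given above, which were mostly Ctss, were likewise lower in VAT, though Fcer1g in KO was not. Their part in this was not tested. No zinc carrier of the SLC30 or SLC39 families was called in either genotype.

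Of 23 carriers of inorganic ions 1 rose and none fell in KO, and 2 rose and 2 fell in WT. Slc4a7, a sodium-bicarbonate importer that raises the pH of the cell, had 15.7, 17 and 13.2 RPKM in VAT KO, 8.52, 10.01 and 11.9 RPKM in VAT WT, 5.99 and 7.16 RPKM in spleen KO, and 5.38 and 7.99 RPKM in spleen WT. VAT libraries were above spleen libraries, and VAT KO above VAT WT. It rose against spleen by 1.1 ± 0.21 (adjusted p = 0.00393) in KO (0.0541 without spleen KO replicate 2), with 0.55 ± 0.21 (adjusted p = 0.0766) in WT, where it passed without spleen WT replicate 3 (0.0191) and with scaling by median ratios (0.0359). Slc8b1, the mitochondrial sodium-calcium exchanger, had a log2 change of 0.32 ± 0.26 (adjusted p = 0.467) in KO and rose by 1.45 ± 0.26 (adjusted p = 0.00153) in WT. Slc26a11, a sulfate transporter, had 2.28, 1.83 and 1.96 RPKM in VAT KO, 0.103, 1.65 and 0.787 RPKM in VAT WT, 4.34 and 4.32 RPKM in spleen KO, and 14.3 and 3.98 RPKM in spleen WT. Its log2 change was -0.82 ± 0.43 (adjusted p = 0.232) in KO and -2.33 ± 0.43 (adjusted p = 0.00168) in WT, or -1.52 in WT without spleen WT replicate 2 and -3.14 without replicate 3. Of 22 carriers of nucleotide sugars and acetyl-CoA 1 rose and none fell in KO, and 4 rose and 2 fell in WT. In WT Slc35d2 rose by 1.2 ± 0.24 (adjusted p = 0.00284) and Slc35c2 by 0.57 ± 0.16 (adjusted p = 0.0232). The call of Slc35c2 was lost without VAT WT replicate 1 or 3 (0.0812 and 0.0557). In KO Slc35d2 had a log2 change of 0.71 ± 0.24 (adjusted p = 0.0671) and Slc35c2 of 0.19 ± 0.16 (adjusted p = 0.491). For Slc35d2 the KO change passed with quantile normalization (0.0431) and median-ratio scaling (0.0426). The one called in both genotypes was Slc35e4, with no established substrate, which had 2.89, 2.5 and 3.37 RPKM in VAT KO, 4.59, 4.17 and 4.58 RPKM in VAT WT, 0.638 and 0.247 RPKM in spleen KO, and 0 and 1.5 RPKM in spleen WT and a log2 change of 1.45 ± 0.33 (adjusted p = 0.0099) in KO (0.11 without spleen KO replicate 3) and 1.78 ± 0.33 (adjusted p = 0.00178) in WT (1.12 without spleen WT replicate 2). Of the symbols that name no carrier, Slc9a3r1 had log2 changes of -0.69 ± 0.13 (adjusted p = 0.0029) in KO and -0.45 ± 0.13 (adjusted p = 0.0222) in WT (0.123 with scaling by median ratios, 0.0548 and 0.0859 without VAT WT replicate 2 or 3). Slc2a4rg-ps, a pseudogene by its symbol, had -1 ± 0.24 (adjusted p = 0.0137) in KO (0.123 and 0.0634 without spleen KO replicate 2 or 3) and -1.11 ± 0.24 (adjusted p = 0.0048) in WT.

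**Figure D4:**
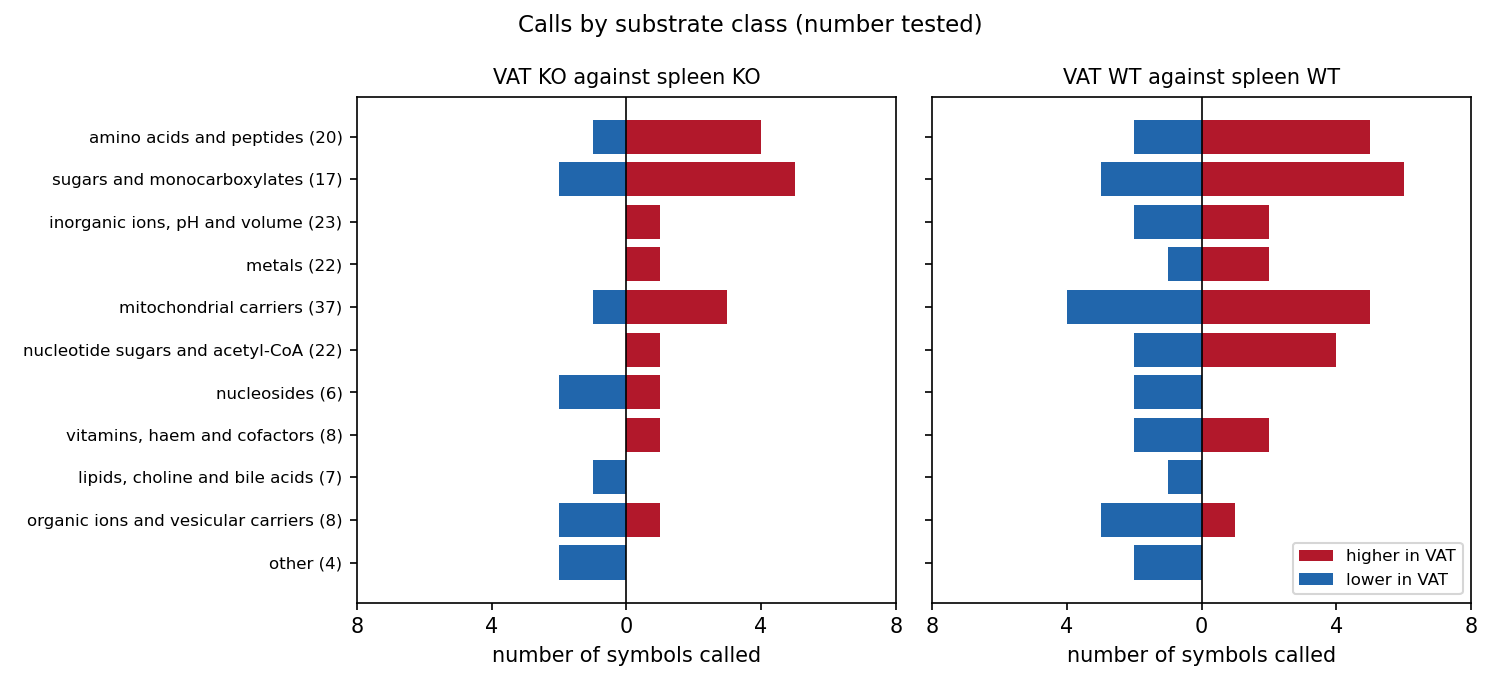
Number of solute carrier symbols called higher (right of 0) and lower (left of 0) in VAT than in spleen, by substrate class, in KO (left panel) and WT (right panel); the number tested is in brackets. Sugar and monocarboxylate carriers have 7 calls of 17 in KO and 9 of 17 in WT, and metal carriers 1 of 22 and 3 of 22.

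Genes that work with these carriers were read from a list of 29, all measured. In KO 5 rose and 3 fell in VAT, and in WT 5 rose and 2 fell, where 14.6% of all genes were called in KO and 26.1% in WT. Atf4, which drives amino acid carriers when amino acids are short, had 93.7, 97.8 and 99.9 RPKM in VAT KO, 98.1, 94 and 98.7 RPKM in VAT WT, 50.9 and 50.1 RPKM in spleen KO, and 65.1 and 46.3 RPKM in spleen WT. It rose by 0.93 ± 0.15 (adjusted p = 0.00101) in KO and by 0.81 ± 0.15 (adjusted p = 0.00175) in WT. The metallothioneins, which bind zinc and copper, were further apart: Mt1 had 23.6, 25.8 and 28.9 RPKM in VAT KO, 29.5, 39 and 33.5 RPKM in VAT WT, 2.03 and 2.04 RPKM in spleen KO, and 7.08 and 0.684 RPKM in spleen WT. Its log2 change was 3.15 ± 0.45 (adjusted p = 0.00042) in KO and 3.24 ± 0.45 (adjusted p = 0.000221) in WT (2.11 without spleen WT replicate 3), and that of Mt2 was 3.52 ± 0.39 (adjusted p = 5.92e-05) and 2.79 ± 0.39 (adjusted p = 0.000247). All VAT libraries were above all spleen libraries for both. The transferrin receptor Tfrc rose by 1.45 ± 0.29 (adjusted p = 0.00537) in KO (0.0941 without spleen KO replicate 3) and by 1.27 ± 0.29 (adjusted p = 0.00769) in WT. Beta subunits of the sodium pump fell: Atp1b1 had a log2 change of -1.62 ± 0.36 (adjusted p = 0.00855) in KO (0.134 without spleen KO replicate 2) and -2.73 ± 0.36 (adjusted p = 0.000136) in WT. For Atp1b3 it was -0.45 ± 0.13 (adjusted p = 0.0337) in KO, where leaving out any 1 of the 3 VAT KO, 3 VAT WT or 2 spleen KO libraries ended the call (up to 0.173), and -0.56 ± 0.13 (adjusted p = 0.0068) in WT. Embigin (Emb), a chaperone of the monocarboxylate transporters, was called in WT only, Hif1a (higher) and Rragd (lower) in KO only, and the chaperone basigin (Bsg), the mitochondrial pyruvate carrier genes Mpc1 and Mpc2 and the amino acid sensor genes Mtor and Rptor in neither.

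In VAT no solute carrier passed the threshold between KO and WT. By limma 0 of 174 members were called between VAT KO and VAT WT, where 44 of all genes were, 0.422% (0.307% higher and 0.115% lower in KO). That number of genes was 2 with VAT KO replicate 3 or VAT WT replicate 1 left out, 5 with VAT KO replicate 2 left out, and at most 59 with any 1 library (spleen WT replicate 2) left out. At an unadjusted p under 0.05 there were 11 members, 6.32% against 7.35% of all genes, and groups did not overlap for 25, 14.4% against 15.1%. The median log2 change of members was -0.01, against 0.02 over all genes. Slc25a33, a mitochondrial carrier of pyrimidine nucleotides, came nearest. It had 10.9, 11.3 and 14.4 RPKM in VAT KO against 3.19, 6.72 and 3.46 RPKM in VAT WT, and every KO library was above every WT library. Its log2 change was 1.32 ± 0.27 (adjusted p = 0.0732). It passed with the VAT groups fitted alone (0.0404) and without VAT WT replicate 2 (log2 change 1.6, adjusted p 0.0323). In spleen it had 3.93 and 8.03 RPKM in KO against 4.51 and 3.88 RPKM in WT, which overlapped. Of its 50-base words 12.6% lie opposite Gm13068.

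The nucleoside carriers followed. Slc28a2b had a log2 change of 1.31 ± 0.32 (adjusted p = 0.157) between VAT KO and VAT WT, and Slc28a2 of 0.54 ± 0.15 (adjusted p = 0.242), from the values given above. In spleen the log2 changes were 0.59 ± 0.39 (adjusted p = 0.675) and 0.38 ± 0.18 (adjusted p = 0.596), and for Slc28a2b leaving out spleen WT replicate 2 gave 0.15 and leaving out replicate 3 gave 1.03. In VAT, Slc4a7 came next at 0.55 ± 0.19 (adjusted p = 0.443). With values below VAT WT were Slc25a30 at -0.55 ± 0.2 (adjusted p = 0.472), Slc35f6 at -0.54 ± 0.2 (adjusted p = 0.486), the Golgi carrier Slc35c2 at -0.39 ± 0.15 (adjusted p = 0.498) and Slc52a3 at -0.63 ± 0.24 (adjusted p = 0.507). The remaining 3 of the 11 were Slc37a3 at -0.44 ± 0.17 (adjusted p = 0.533), Slc17a9 at 0.59 ± 0.26 (adjusted p = 0.638) and Slc2a3 at -0.35 ± 0.15 (adjusted p = 0.643). The VAT WT libraries also enter the WT comparison of tissue above. Slc25a1, the exporter of mitochondrial citrate from which sterols and fatty acids are built, had 12.8, 11.5 and 12.9 RPKM in VAT KO against 13.5, 18.3 and 11.2 RPKM in VAT WT, which overlapped. No gene of the partner list was called.

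**Figure D5:**
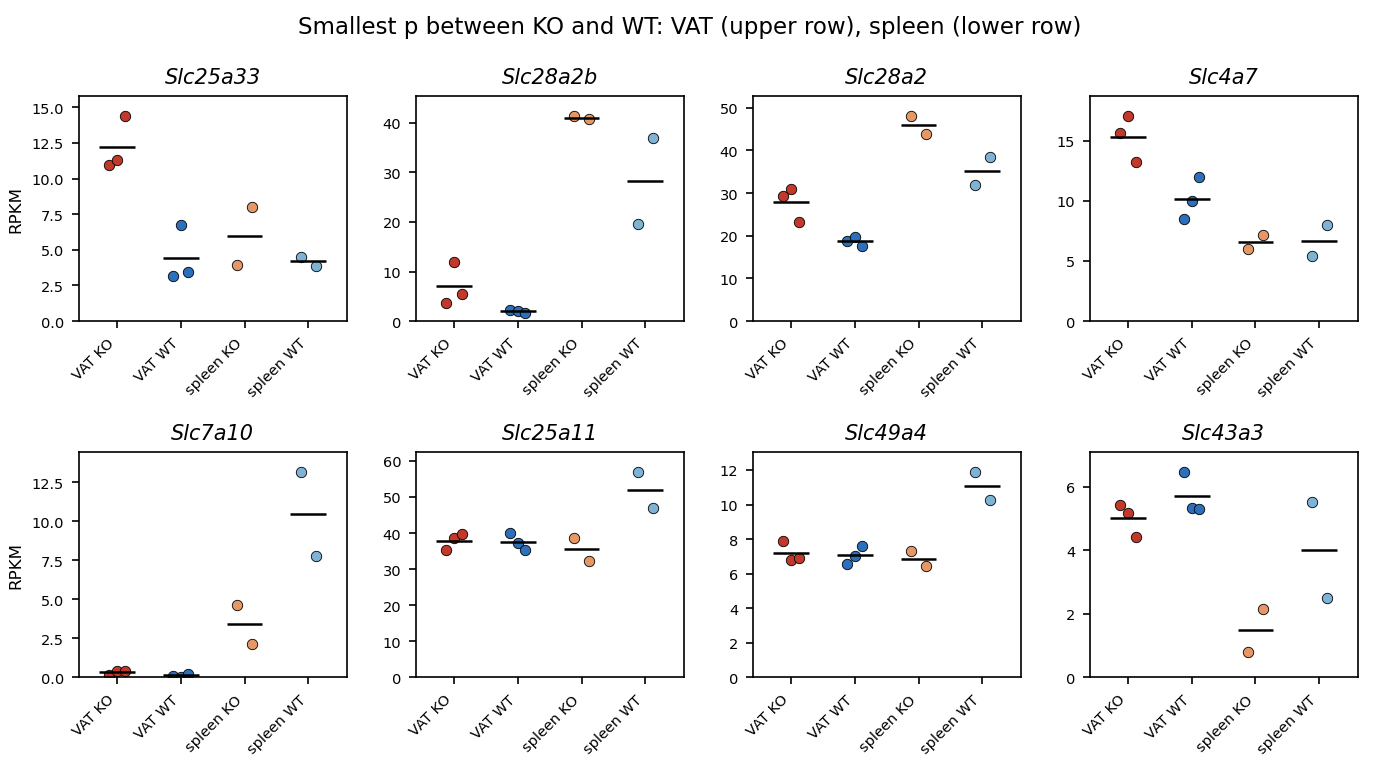
RPKM (y axis, linear, from 0) per library of the 4 solute carriers with the smallest p between VAT KO and VAT WT (upper row) and of the 4 with the smallest p between spleen KO and spleen WT (lower row); points are libraries and bars group means. In the upper row VAT KO lies above VAT WT without overlap, with Slc25a33 at 10.9 to 14.4 RPKM against 3.19 to 6.72 RPKM, and in the lower row spleen KO lies below spleen WT without overlap; no member passed the adjusted threshold.

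In spleen limma called 0 members between KO and WT, and 0 of all genes (0%). The deleted gene itself was missed, as Srebf2 had a log2 change of -2.45 ± 0.4 (adjusted p = 0.244). A count of 0 thus does not show that carriers were unchanged in spleen. At an unadjusted p under 0.05 there were 17 members, 9.77% against 8.37% of all genes, and groups of 2 did not overlap for 56, 32.2% against 32.6%. Slc7a10 had the smallest p: 4.66 and 2.12 RPKM in spleen KO against 13.1 and 7.77 RPKM in spleen WT, a log2 change of -1.41 ± 0.32 (adjusted p = 0.367). The KO libraries were both below the WT libraries, while in VAT the gene was at 0.424 RPKM or less in either genotype. Slc25a11, the oxoglutarate carrier, had 38.7 and 32.2 RPKM in spleen KO against 56.8 and 47 RPKM in spleen WT (-0.54 ± 0.16 (adjusted p = 0.549)). Lower values in KO were also found for Slc49a4 at -0.61 ± 0.2 (adjusted p = 0.582), Slc43a3 at -1 ± 0.32 (adjusted p = 0.582), the ornithine carrier Slc25a15 at -0.9 ± 0.3 (adjusted p = 0.582), Slc12a8 at -0.9 ± 0.33 (adjusted p = 0.594) and Slc40a1 at -0.68 ± 0.26 (adjusted p = 0.594), and higher values for Slc8b1 at 0.85 ± 0.29 (adjusted p = 0.582). Slc40a1 passed the level rule through the 2 spleen WT libraries alone, which favours a lower value in KO. Slc12a8 passed it through spleen WT replicate 2 (1.88 RPKM) and VAT KO replicate 3 (1.4 RPKM). The count rested on 1 library: without spleen WT replicate 3, members passed the threshold, at about the rate of genes in general. The median log2 change without that library was 0.06 over members and -0.01 over all genes. A lone spleen WT library is then assumed to vary as the other groups do.

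The difference of the deletion's effect between the tissues was tested as an interaction, VAT effect minus spleen effect. It called 0 members and 0 of all genes (0%). At an unadjusted p under 0.05 there were 13 members, 7.47% against 7.08%. The smallest p were those of Slc7a10 at 1.64 ± 0.42 (adjusted p = 0.534), Slc25a15 at 1.22 ± 0.39 (adjusted p = 0.621), Slc8b1 at -1.13 ± 0.37 (adjusted p = 0.621) and Slc12a8 at 1.29 ± 0.43 (adjusted p = 0.621). The next were Slc29a3 at -1.25 ± 0.47 (adjusted p = 0.65), Slc25a11 at 0.55 ± 0.21 (adjusted p = 0.652), Slc49a4 at 0.64 ± 0.25 (adjusted p = 0.665) and Slc26a11 at 1.51 ± 0.6 (adjusted p = 0.665). Without spleen WT replicate 3, which leaves a lone spleen WT library, members passed the threshold at about the rate of genes in general. The median interaction was then -0.01 over members and 0.04 over all genes. Carriers that the tissue comparison called in only 1 genotype are therefore not shown to differ between the genotypes.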

How the data were processed

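Bulk RNA libraries were made with the Quick-RNA MicroPrep, SMART-seq and Nextera XT kits, per the labels' protocols, and carry no strand information. STAR and mm10 are named in the submitters' processing notes; how reads were counted, on which gene models and with which gene filter is not stated there. Per the file headers, the authors deposited 1 RPKM table of genes by libraries. It holds no counts, so depth is unknown and intervals for counting error could not be given. Of 11 labelled samples 10 had a matching column and were used. The labelled spleen KO replicate 1 was not analysed here, and 1 column of per-sample values, headed as a spleen WT replicate 1, matched no label and was not used.

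RPKM was taken to log2 after a pseudocount of 1 was added, which understates fold changes of low genes. Genes with at least 1 RPKM in at least 2 libraries were fitted in 1 limma model (limma 3.58.1, R 4.3.3) with the 4 group means, trend on, 6 residual and 6.44 prior degrees of freedom. Tests were two-sided, adjusted by Benjamini-Hochberg over 10429 genes within a comparison and called under 0.05. Errors (±) of log2 changes are limma standard errors. The design had assumed 11 samples and took all groups into 1 fit so that they share an estimate of spread.

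Members, classes, partner genes and motifs were chosen with earlier results of these data known. Classes follow Slc families, except that 4 symbols naming no carrier were set apart once the list of rows was seen. Named were the 10 highest members, called members with a mean of at least 5 RPKM and groups that did not overlap, the 8 smallest p of each deletion comparison and the smallest p of each class; 1 member that this rule takes in is not reported here. Others, such as Slc2a1, Slc16a1, Slc25a1, Slc3a2 and Slc27a1, were named for their roles after their values were seen. Coordinates are GRCm38.p6 (mm10), counted from 1. Shared 50-base words were counted over GENCODE transcripts. Each fit was repeated with a pseudocount of 0.1 or 5, without the filter, with a minimum mean of 5 RPKM, after quantile normalization, after median-ratio scaling, on the compared groups alone, with a replicate block, and without each library in turn.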

Additional observations from a re-analysis of the deposited data

How the results depend on the processing

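Counts of called members depended on the filter, the pooling of groups and single spleen libraries. Between VAT KO and VAT WT the count was 0, and 1 with the compared groups alone, which called 0.575% of all genes. Leaving out 1 VAT library gave 0 to 1, with 0.0192% to 0.374% of all genes called. Between spleen KO and spleen WT and for the interaction it was 0, with a range of 0 to 26 and 0 to 10 when 1 library was left out, the upper values without spleen WT replicate 3. For VAT KO against spleen KO it was 29, and 18 with a mean of at least 5 RPKM, which tests fewer genes; leaving out 1 library gave 13 to 42. For VAT WT against spleen WT the count was 51, where 26.1% of all genes were called, and 29 of 99 with that filter (29.9%). Leaving out 1 VAT library gave 38 to 48 members and 18.3% to 24.6% of all genes. Fewer members and fewer of all genes were called without spleen WT replicate 2, and more of both without replicate 3. The replicate block gave 25 in KO (15 higher, 10 lower), 38 in WT (22 higher, 16 lower), and 0 in the other comparisons. Over all genes the block called 10.5% in KO and 19.8% in WT. The numbers were not taken to pair libraries: between VAT KO and VAT WT same-numbered libraries had deviation correlations of -0.09, 0.05 and -0.15. Between VAT and spleen, replicates 2 and 3 had 0.09 and 0.18 in WT and 0.003 and 0.05 in KO. With 2 spleen libraries per group, these values cannot show whether tissues were paired by animal. Under the block 17 of 147 named results lost the call and none gained one. Over all alternatives of the named results, 2349 of 2573 kept direction and side of the threshold, 181 lost the call, 43 gained it and 0 changed sign; where no cause is given, the cause was not tested. Each spleen group has 2 libraries and the depth is unknown, which limits the precision of the spleen comparisons and of low levels.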
